A study of Homo sapiens with 2 samples.

Results

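The HOXC cluster lies on chromosome 12 and holds 9 homeobox genes, HOXC13, HOXC12, HOXC11, HOXC10, HOXC9, HOXC8, HOXC6, HOXC5 and HOXC4, all transcribed from the plus strand. CpG methylation was followed across the span from the start of HOXC13 to the end of HOXC4 (hg19, chr12:54332615-54449814, 117.2 kb) at every CpG with at least 1 read in both whole-genome bisulfite sequencing (WGBS) libraries of the series. This rule gave 2348 of the 3414 CpGs of the reference in the span, among 14699127 CpGs compared in the genome. Of the 2348, 955 lay in a HOXC gene body, 602 lay in a HOXC promoter (1 kb on either side of the start of transcription), 468 of them in both, and 1259 lay between the genes.

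WGBS reads methylation from bisulfite-treated DNA, in which unmethylated cytosines are read as T and methylated cytosines stay C. Both samples were HEK293T cells, a line grown from human embryonic kidney. Neg was the negative control, described by the study as not transduced. dCas9+3A+HOXA5 carried, by lentivirus, 3 constructs: a Cas9 that binds without cutting and is tailed with repeated SunTag peptides, DNMT3A, which methylates DNA, joined to an antibody fragment that recognises those peptides, and a guide RNA to HOXA5. Its cells were sorted for fluorescence again after 30 days. The infection text of the labels stands on both samples, so that the titles separate them. The comparison asks what the methylation of a HOX cluster that no guide was aimed at looked like in the cells that carried the HOXA5-directed methyltransferase. Each group held 1 library, so no value has a replicate error, and every test sets one library against the other, which is no test of the conditions. No library with the methyltransferase and no guide was analysed here, so effects of the guide, of the methyltransferase and of transduction and sorting cannot be told apart.

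HOX genes encode transcription factors with a DNA-binding homeodomain that set position along the body axis. Their order on the chromosome follows the order in which they are used along this axis, from anterior genes such as HOXC4 to posterior genes such as HOXC13. In cells that do not use them, HOX clusters are typically kept silent by Polycomb complexes over CpG-rich DNA that carries little methylation around the gene starts.

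The HOXA5 guide was located by exact match on chromosome 7 (hg19, plus strand, chr7:27182884-27182903), before a GGG. It is shown because it is what the constructs were given to find.

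HOXA5 guide: ggctgtcgctgccgggcgag

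The HOXC span held 21365 sites of 20 bases before an NGG on either strand. The fewest mismatches to the guide at any of them was 7 of 20, at 9 sites, and the fewest within HOXC5, the HOXC gene of the same paralogue group as HOXA5, was 9. The 1-kb windows around these 9 sites differed by -1.80 to 78.8 points in methylation, and that around the first of the 7 tied best sites of HOXC5 had 2.11% in Neg against 1.83% in dCas9+3A+HOXA5. The promoter of HOXA5 itself had a mean methylation of 1.87% in Neg against 41.2% in dCas9+3A+HOXA5 over 116 CpGs (adjusted exact p = 1.71e-34, Fisher's exact test on reads, as below).

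Depth was low. The libraries held 89774283 reads at 23653951 CpGs in Neg against 46703423 reads at 16134844 CpGs in dCas9+3A+HOXA5, counted once at each CpG a read covers. In the HOXC span a compared CpG had a median of 4 reads in Neg (range 1 to 18) against 3 reads in dCas9+3A+HOXA5 (range 1 to 15). Relative to the mean of chromosome 12, the depth of the span was 1.13 in Neg against 1.08 in dCas9+3A+HOXA5.

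The cluster was more methylated in dCas9+3A+HOXA5. The methylation level, the mean over CpGs of the deposited fraction (the share of reads that stayed C, corrected for C-to-T variants), was 41.5% in Neg, with an SD of 43.8 between CpGs, and rose to 64.5% in dCas9+3A+HOXA5, with an SD of 45.4. The difference was 23.0 percentage points, against 5.81 points over the genome (63.7% and 69.5%) and 5.76 points over chromosome 12. In reads, the share was 4539 of 9759 in Neg, or 46.5% with a 95% Wilson interval from 45.5 to 47.5%, against 5049 of 7343 in dCas9+3A+HOXA5, or 68.8% with an interval from 67.7 to 69.8%. The two-sided Fisher's exact test gave p = 8.8e-188. One fragment is counted at each CpG it covers, so the intervals cover counting error only and are too narrow, and the p-values are too small. With CpGs kept at least 150 bp apart, so that fewer fragments count more than once, the difference was 25.1 points (exact p = 2.45e-42). Fragments longer than this could still count more than once.

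The difference was smaller in the flanks of the cluster, which had a higher level in Neg. The 100 kb before HOXC13 went from 75.8% in Neg to 85.3% in dCas9+3A+HOXA5, and the 100 kb after HOXC4 from 67.0% to 82.1%. The nearest protein-coding genes with a start of their own outside the span, CALCOCO1 at 211 kb and SMUG1 at 133 kb, had promoters at 10.5% and 15.8%, and at 21.6% and 22.2%, with neither called different. The other HOX clusters are given as values, with no test between clusters: HOXA, which contains the guide, had 28.0% in Neg against 55.4% in dCas9+3A+HOXA5, HOXB1 to HOXB9 had 38.1% and 67.4%, and HOXD had 60.8% and 70.1%.

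To locate the difference, the genome was divided into 500-bp tiles, and a tile was called when its level differed by over 20 percentage points and the Fisher's exact test on its reads, adjusted by the Benjamini-Hochberg method over all tiles of the genome, gave p under 0.01. In the HOXC span 40 of 191 tiles with at least 3 CpGs passed as higher in dCas9+3A+HOXA5 (20.9%), and none was called lower. Over the genome 0.606% of tiles were called higher and 0.202% lower. In the 100 kb before HOXC13 none of 72 tiles was called, and in the 100 kb after HOXC4 11 of 123 were called higher (8.94%). In the other HOX clusters, with no test between clusters, 55 of 170 HOXA tiles (32.4%) were called higher and 3 lower. Among HOXB1 to HOXB9 43 of 147 were called higher (29.3%), and in HOXD 11 of 131 (8.40%), with none lower in either. The median difference of the HOXC tiles was 20.9 points, against 4.20 points in the genome. Called or not, 146 of the 191 were higher in dCas9+3A+HOXA5 and 29 lower. Over the genome 1074381 of 1858680 tiles were higher and 593102 lower. The called tiles were spread unevenly, as the plot of tiles along the cluster shows. Tiles between them that were not called included some with large differences on few reads, such as one with 7 CpGs that differed by 61.7 points (39 and 16 reads, adjusted exact p = 0.0226). Requiring at least 3 or at least 5 reads at each CpG left 22 and 5 called tiles. The share over the genome is not given at these minimums, so these counts are not set against it. With CpGs at least 150 bp apart, where a tile holds few CpGs, no single tile was called.

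**Figure D1:**
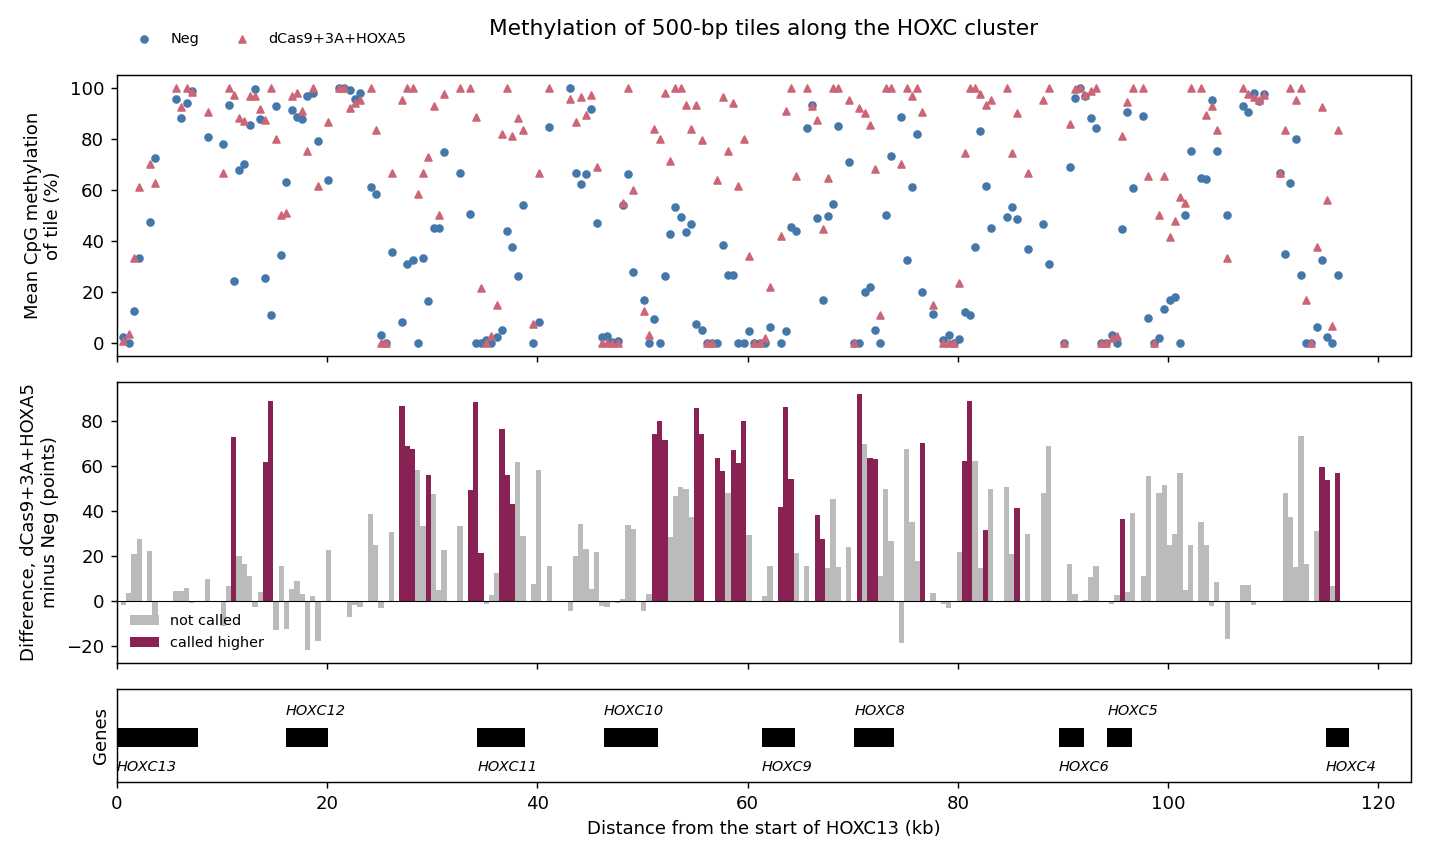
Mean CpG methylation (%) of each 500-bp tile in Neg (circles) and dCas9+3A+HOXA5 (triangles) against distance from the start of HOXC13 (kb), above the difference of the tile in percentage points (bars) and the bodies of the 9 genes. The 40 called tiles (dark bars) all point upward and lie between 11.1 and 116 kb, with none in HOXC13, HOXC12, HOXC6 or the piece between HOXC5 and HOXC4.

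Called tiles were counted by their level in Neg, where a tile at 80% or more cannot be called higher because it cannot gain over 20 points. A tile under 20% likewise cannot be called lower. Of 69 HOXC tiles under 20% methylated in Neg, 22 were called higher (31.9%, against 1.92% of such tiles in the genome), and of 80 tiles at 20 to 80%, 18 were called higher (22.5%, against 0.857%) and none lower (0.253% in the genome). In the 100 kb after HOXC4 the tiles under 20% were fewer, and 8 of 11 were called higher (72.7%), with no test between the flank and the cluster. Of such tiles 46.0% were called higher in HOXA, 38.5% in HOXB1 to HOXB9 and 18.4% in HOXD, also with no test. None of the 42 HOXC tiles at 80% or more was called, where 0.204% of such tiles in the genome were called lower. Among the 100 HOXC tiles with at least 10 CpGs compared, 33 were called higher (33.0%, against 1.46% higher and 0.678% lower in the genome), and among the 45 of these under 20% in Neg, 18 were (against 2.61%). Among the low tiles 34 stayed under 20% in dCas9+3A+HOXA5, 23 moved to 20 to 80% and 12 to 80% or more (17.4%, against 4.72% in the genome). Among the intermediate tiles 58 of 80 reached 80% or more (72.5%, against 45.6% in the genome) and none fell under 20% (6.30% in the genome). Tiles low in Neg were thus found both near 0 and near full methylation in dCas9+3A+HOXA5, which is visible in the plot of the tiles against each other. Where a single CpG had 4 reads or more in each library, 41 of the 163 at or under 20% in Neg were at or over 80% in dCas9+3A+HOXA5 (25.2%, against 8.87% in the genome).

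**Figure D2:**
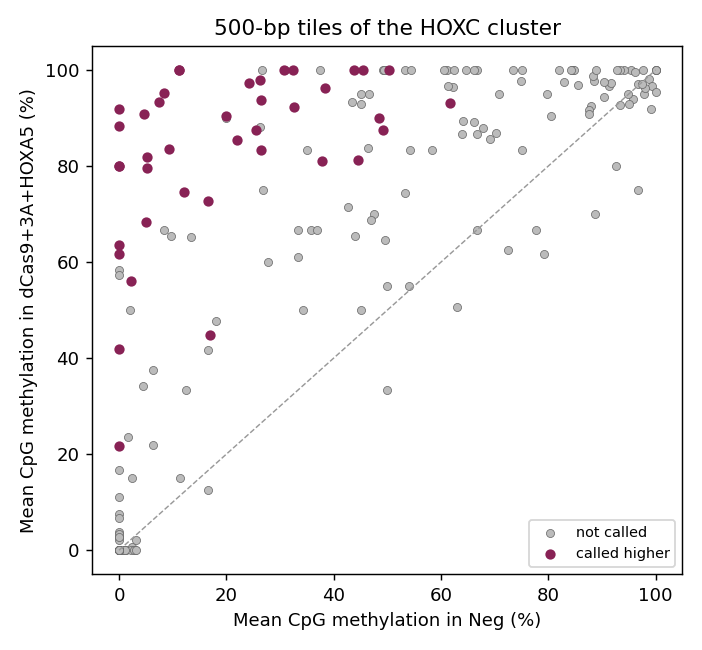
Mean CpG methylation (%) of the 191 HOXC tiles in dCas9+3A+HOXA5 against Neg, with the 40 called tiles dark and the line of equal levels dashed. Of the 69 tiles under 20% in Neg, 34 stay at the bottom left and 12 reach 80% or more at the top left.

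The tile with the largest gain covered most of the first coding exon of HOXC8 (chr12:54403001-54403500), with 0 of 102 reads methylated in Neg against 60 of 66 in dCas9+3A+HOXA5 (0% and 92.0% over 28 CpGs, adjusted exact p = 2.46e-34). The tile at the start of HOXC11 (chr12:54366501-54367000) went from 0% to 88.4% over 11 CpGs (adjusted exact p = 1.97e-12). The other 3 of the 5 largest gains lay between the canonical bodies of HOXC genes, though not all outside noncoding genes. The first was at chr12:54347001-54347500, upstream of HOXC12 (11.1% and 100%, 14 CpGs, adjusted exact p = 7.84e-16). The next was at chr12:54413501-54414000 between HOXC8 and HOXC6, over the start of the noncoding gene ENSG00000260597 (11.1% and 100%, 6 CpGs, adjusted exact p = 3.15e-05). The last was at chr12:54359501-54360000 upstream of HOXC11, within the noncoding gene HOTAIR (8.33% and 95.2%, 13 CpGs, adjusted exact p = 8.2e-12). All 5 were under 20% in Neg and over 80% in dCas9+3A+HOXA5. The lowest difference was in the HOXC12 body, 96.7% in Neg against 75.0% in dCas9+3A+HOXA5 (21 of 22 and 14 of 20 reads, adjusted exact p = 0.356), and was not called.

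By promoter, 3 of the 9 HOXC genes were called higher, HOXC8, HOXC4 and HOXC11, and none lower, where 1.48% of 18698 protein-coding promoters in the genome were called higher and 0.572% lower. All 3 were among the 8 HOXC promoters under 20% in Neg, a class of which 0.732% were called higher in the genome. A promoter of this class cannot lose over 20 points, so that of the 9 only HOXC12 could be called lower. Within 250 bp on either side of the start, a narrower window added after seeing the data, HOXC11 and HOXC4 were the 2 called higher of the 8 genes with enough CpGs and none was called lower, against 0.983% and 0.835% in the genome (0.603% higher among starts under 20% in Neg). In this window too only HOXC12, at 54.9% in Neg, could be called lower. The median difference of the 9 promoters was 4.79 points, against 1.21 points over all promoters. The called genes lay at the anterior end and inside the cluster, and neither of the 2 most posterior genes, HOXC13 and HOXC12, was called. With CpGs at least 150 bp apart none of the 3 promoters was called, at differences of 25.6 points for HOXC8 (adjusted exact p = 0.991), 33.3 points for HOXC4 (adjusted exact p = 0.602) and 38.5 points for HOXC11 (adjusted exact p = 0.0276), where far fewer reads enter each promoter.

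**Figure D3:**
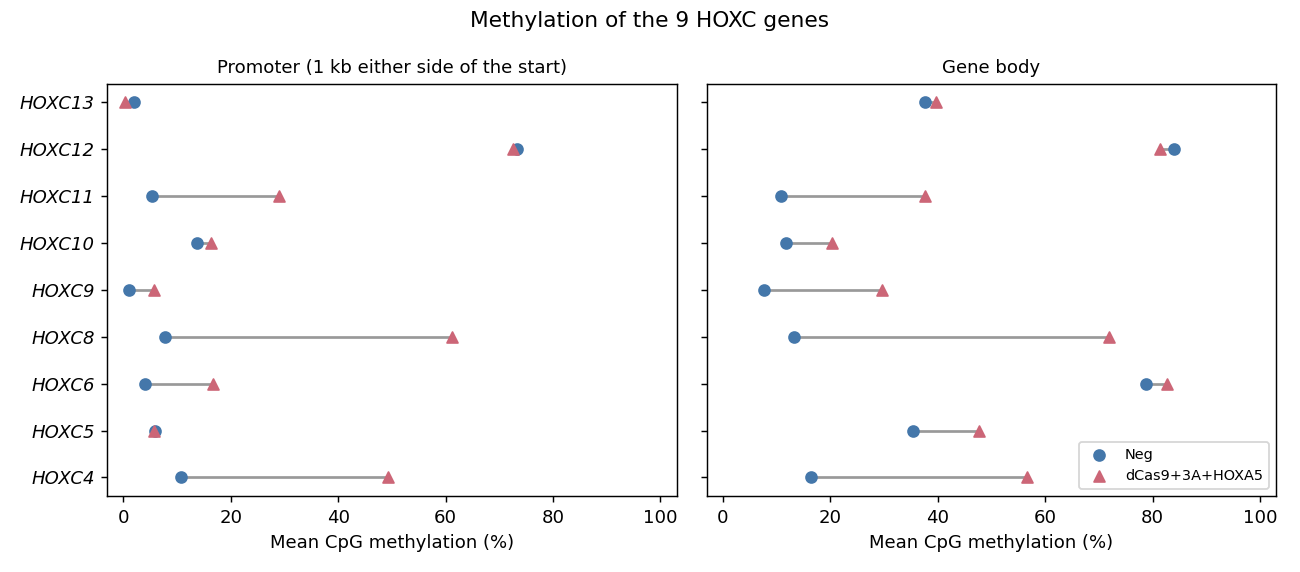
Mean CpG methylation (%) of the promoter and of the gene body of each HOXC gene, posterior at the top, in Neg (circles) and dCas9+3A+HOXA5 (triangles), with 1 library per group and no error bars. HOXC8, HOXC11 and HOXC4 move to the right in both panels, HOXC9 in the body only, and HOXC12 and HOXC13 stay within 3 points.

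HOXC13, at the posterior end, is known for its role in hair and nail formation. Its promoter, limited to the 1 kb after the start because the span begins there, had 5 of 264 reads methylated in Neg against 1 of 192 in dCas9+3A+HOXA5 (1.97% and 0.321%, 78 CpGs, adjusted exact p = 0.683). Its first coding exon had 2.33% and 0%, and its second, which as in other HOX genes carries the homeobox, had 95.0% and 96.3%. HOXC13 thus kept an unmethylated front and a methylated rear in both libraries, and its body as a whole had 37.6% and 39.7% (adjusted exact p = 0.765).

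HOXC12 was the one gene with a methylated promoter in Neg. It had 73.4% in Neg against 72.5% in dCas9+3A+HOXA5 over 80 CpGs (247 of 338 and 195 of 308 reads, adjusted exact p = 0.0520). The promoter difference was larger in the lower direction with at least 3 reads at each CpG (-10.2 points, adjusted exact p = 0.0183), with at least 5 reads (-17.8 points, adjusted exact p = 0.0180) and over summed reads (-9.77 points), and was not called in any of these. It had the opposite sign within 500 bp on either side of the start (2.57 points, adjusted exact p = 0.142) and from 250 bp before to 50 bp after it (37.1 points, adjusted exact p = 0.982), so its direction depended on the window. Its first coding exon had 172 of 220 reads methylated in Neg against 110 of 187 in dCas9+3A+HOXA5 (81.2% and 74.5%, unadjusted Fisher's exact p = 3.78e-05). Its body had 84.0% and 81.3% (adjusted exact p = 0.0959). The 250 bp on either side of its start had 54.9% and 52.5%. In 250-bp tiles, an alternative grid, one tile near its start was the single HOXC tile called lower.

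HOXC11, which can activate the intestinal lactase gene, had a called promoter. Of its reads 23 of 434 were methylated in Neg against 111 of 278 in dCas9+3A+HOXA5 (5.26% and 28.9%, 84 CpGs, adjusted exact p = 1.46e-27). The difference of 23.7 points was 23.3 points with at least 3 reads at each CpG, 22.7 points without C-to-T variant CpGs and 34.6 points over summed reads. It was 42.6 points within 500 bp on either side of the start and 72.4 points with at least 5 reads at each CpG (adjusted exact p = 2.16e-09). From 250 bp before to 50 bp after the start it was 90 points (adjusted exact p = 1.3e-11). The read minimums and the narrower windows keep fewer CpGs. The gain was at the start and before it. The 250 bp on either side of the start had 0 of 71 reads methylated in Neg against 80 of 118 in dCas9+3A+HOXA5 (0% and 67.9%), and the stretch from 1000 to 251 bp before the start had 57.5% and 100%. From 251 to 1000 bp after the start the level was 0.742% and 1.88%. A stretch at 67.9% in dCas9+3A+HOXA5 thus bordered on one under 2% within the same promoter.

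The body of HOXC11 had 10.9% and 37.6% over 161 CpGs (adjusted exact p = 7.09e-39), and this call held with CpGs at least 150 bp apart (32.1 points, adjusted exact p = 4.22e-06). It overlaps the start of HOTAIR, a long noncoding RNA that is transcribed from the opposite strand and is known to bind Polycomb repressive complex members. The HOTAIR promoter had 4.48% in Neg against 30.4% in dCas9+3A+HOXA5 (12 of 249 and 50 of 112 reads, adjusted exact p = 3.14e-16), a call that was lost with CpGs at least 150 bp apart (15.0 points, adjusted exact p = 0.448). The difference of 25.9 points was 84.3 points with at least 3 reads at each CpG (adjusted exact p = 1.7e-16) and 39.8 points over summed reads. The minimum of 3 reads leaves out the start of HOTAIR. From chr12:54368001 to 54369000, which holds it, no compared CpG had more than 2 reads in dCas9+3A+HOXA5. The tiles there had 0% in Neg against 2.78% in dCas9+3A+HOXA5, and 2.50% against 15.0%.

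HOXC10, a lumbar-level gene in the spinal cord, showed little difference at its promoter, 13.8% in Neg against 16.3% in dCas9+3A+HOXA5 (44 of 379 and 29 of 216 reads, 92 CpGs, adjusted exact p = 0.775). Both of its coding exons stayed near 0, at 1.67% and 0% in the first and 0% and 0% in the second. Its body had 11.8% and 20.3% (adjusted exact p = 0.0773). One of the 7 tiles of its body beyond the promoter, the last of the body, was called (9.39% and 83.6%, adjusted exact p = 7.92e-05).

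HOXC9, which sets thoracic motor neuron identity, showed different values at its front and rear. Its promoter had 1 of 253 reads methylated in Neg against 13 of 213 in dCas9+3A+HOXA5 (0.990% and 5.78%, 101 CpGs, adjusted exact p = 0.00502), a difference too small to be called. Its first coding exon had 0% and 2.12%, and its second 4.62% and 90.9% (3 of 50 and 53 of 59 reads). The body, at 7.63% and 29.6% over 116 CpGs, was called (adjusted exact p = 2.36e-19), also with CpGs at least 150 bp apart (47.6 points, adjusted exact p = 0.000249), and the 3 tiles of the body beyond the promoter were called, while the 2 that lie in both body and promoter were not. The annotated gene record starts farther upstream, and around that start the difference was 49.6 points and was called.

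HOXC8, active at the brachial level, had the largest gain among the 9 promoters of 1 kb on either side of the start, but not within 500 bp on either side, where it gained 39.3 points against 42.6 for HOXC11 and 44.05 for HOXC4, nor with CpGs at least 150 bp apart, nor at the starts of gene records, where HOXC6 gained 68.4 points. It had 17 of 170 reads methylated in Neg against 83 of 123 in dCas9+3A+HOXA5 (7.67% and 61.2%, 63 CpGs, adjusted exact p = 2.02e-22). The gain was not at the start itself: within 250 bp on either side, 0 of 34 reads were methylated in Neg against 0 of 31 in dCas9+3A+HOXA5, over 21 CpGs. From 251 to 1000 bp after the start the level was 5.26% and 91.4%, and from 1001 to 2000 bp after it 21.9% and 85.5%. The body, at 13.3% and 71.9% over 80 CpGs, was called (adjusted exact p = 2.41e-53), and held with CpGs at least 150 bp apart (42.0 points, adjusted exact p = 2.03e-06). The methylated side is shown by the first 200 bases of the coding sequence (hg19, plus strand, chr12:54403069-54403268), where 15 of the 16 CGs read in both are in capitals for 50% or more in dCas9+3A+HOXA5 (0% in Neg against 95.3% in dCas9+3A+HOXA5; 0 of 60 and 43 of 46 reads).

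HOXC8 exon 1: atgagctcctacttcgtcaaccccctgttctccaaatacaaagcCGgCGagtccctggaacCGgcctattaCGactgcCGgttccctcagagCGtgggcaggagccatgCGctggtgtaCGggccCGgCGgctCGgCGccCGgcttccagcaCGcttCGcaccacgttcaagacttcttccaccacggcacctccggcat

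No CpG of this exon had more than 6 reads in Neg or more than 4 in dCas9+3A+HOXA5, so its value rests on few fragments. Requiring at least 3 reads at each CpG left a promoter difference of 72.5 points (adjusted exact p = 1.44e-09). This minimum drops all 21 CpGs within 250 bp of the start, which were at 0% in both libraries. None of them had more than 2 reads in dCas9+3A+HOXA5.

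HOXC6, another brachial gene, was thinly read at its start. Its promoter had 12 CpGs compared, with 3 of 49 reads methylated in Neg against 2 of 28 in dCas9+3A+HOXA5 (4.05% and 16.7%, adjusted exact p = 1.0), and its body had 78.7% and 82.7% (adjusted exact p = 0.00195), a difference under 20 points. Its first coding exon had 2 CpGs compared and its second was methylated in both libraries, at 91.3% and 96.0%. Its gene record starts far upstream, between HOXC10 and HOXC9, and the promoter there differed by 68.4 points and was called, as was the body over the whole record (34.5 points, adjusted exact p = 2.58e-161), which takes in the bodies of HOXC9 and HOXC8.

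HOXC5, in the same paralogue group as HOXA5, was not called at its promoter, with 5.92% in Neg against 5.69% in dCas9+3A+HOXA5 (9 of 206 and 7 of 133 reads, 48 CpGs, adjusted exact p = 0.960). Its first coding exon had 3.12% and 1.97%, while its second had 8.98% and 73.4% (5 of 58 and 76 of 93 reads). Its body had 35.4% and 47.6% (adjusted exact p = 1.04e-06), a difference of 12.2 points that was under the threshold. Over summed reads the body differed by 18.9 points, and with CpGs at least 150 bp apart by 1.62 points (adjusted exact p = 0.341). The low front and higher rear of HOXC5 had the same order as in HOXC9.

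HOXC4, the most anterior gene of the cluster and an activator of the antibody-diversifying enzyme AID in B cells, was called at its promoter, with 21 of 118 reads methylated in Neg against 50 of 95 in dCas9+3A+HOXA5 (10.8% and 49.2%, 44 CpGs, adjusted exact p = 4.29e-06). Within 250 bp of the start the level was 2.50% and 81.7% over 10 CpGs (adjusted exact p = 4.39e-06), from 251 to 1000 bp after it 0% and 10.5%, and in the second coding exon 27.6% and 82.6%. Its body, at 16.4% and 56.6%, was called (adjusted exact p = 4.11e-08), but not with CpGs at least 150 bp apart (38.0 points, adjusted exact p = 0.122). Around the far upstream start of its gene record the difference was 2.43 points and was not called, nor was the body over the whole record (19.6 points, adjusted exact p = 4.27e-41).

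By gene body, 4 of the 9 genes were called higher, HOXC11, HOXC9, HOXC8 and HOXC4, and none lower, against 2.03% and 0.284% of 19398 bodies in the genome. Bodies under 20% in Neg, which include all 4 called, could not be called lower. Over whole gene records, which start farther upstream in some genes, 4 bodies were also called but with HOXC6 (34.5 points, adjusted exact p = 2.58e-161) in place of HOXC4 (19.6 points, adjusted exact p = 4.27e-41). The record of HOXC6 contains the bodies of HOXC9 and HOXC8 and most of the piece between HOXC10 and HOXC9, so that its call counts their CpGs again. The first coding exon was at or under 3.12% in Neg in 8 genes and at or under 10.2% in dCas9+3A+HOXA5 in 6 of them, all but HOXC8 and HOXC4. Of these, the value of HOXC6 rests on 2 CpGs, with 0 of 14 reads methylated in Neg against 0 of 2 in dCas9+3A+HOXA5. That is too few to tell whether it stayed low. The second coding exon was under 30% in Neg in 5 of the 8 genes with a value, HOXC10, HOXC9, HOXC8, HOXC5 and HOXC4, and was at 58.1% or more in dCas9+3A+HOXA5 in all of these but HOXC10. No CpG of the second coding exon of HOXC11 was read in both libraries.

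**Figure D4:**
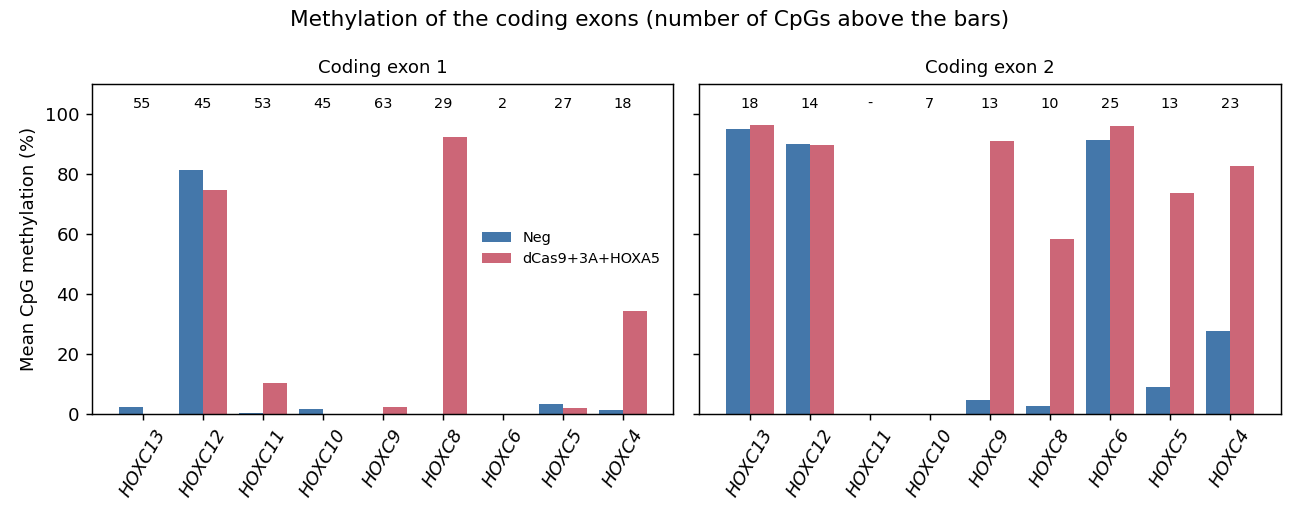
Mean CpG methylation (%) of the first and second coding exons of each HOXC gene in Neg and dCas9+3A+HOXA5, with the number of CpGs compared above the bars and a dash where none was read in both libraries. The first exon of HOXC8 and the second exons of HOXC9, HOXC8, HOXC5 and HOXC4 have the tallest differences, and the exons of HOXC10 stay at or under 1.67%.

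Around the starts of the 9 genes, median methylation was higher in dCas9+3A+HOXA5 in every bin from 700 bp outward to 2900 bp, on either side. Nearer the start it was equal or in the opposite order in some bins. In 200-bp bins, the median over genes at 100 bp after the start was 0% in Neg against 7.78% in dCas9+3A+HOXA5, and at 500 bp after it was 0% in both. At 900 bp after the start it was 0% and 25.6%, and at 1300 bp after it 25.0% and 91.7%. At 300 bp before the start the median was 13.6% and 46.7%, and at 500 bp before it the order was the opposite, 13.3% and 10%. The medians do not show the genes called higher within 250 bp of the start, HOXC11 and HOXC4, and the mean over genes was 1.18% and 35.1% at 100 bp before the start, and 8.54% and 25.0% at 100 bp after it. The means also take in genes that were not called. HOXC12 differed by 37.1 points from 250 bp before to 50 bp after its start (adjusted exact p = 0.982). The 69 tiles under 20% in Neg were grouped by distance to the nearest canonical start of any gene, coding or noncoding. The 20 within 500 bp had a median difference of 2.39 points and the 21 at 500 to 1500 bp had 6.67 points. The 28 beyond 1500 bp had 49.9 points. Called tiles were nonetheless found at all distances, 6, 5 and 11 of them. Upstream starts of gene records, such as those of HOXC6, HOXC9 and HOXC4, were not counted as starts. One called tile holds the HOXC6 record start, and another lies within 500 bp of that of HOXC9. The contrast with distance thus applies to canonical starts, and was not tested with record starts included. The density of CpGs moved with distance, with a median of 33.5, 19 and 11 reference CpGs a tile, and its part in the result was not tested.

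**Figure D5:**
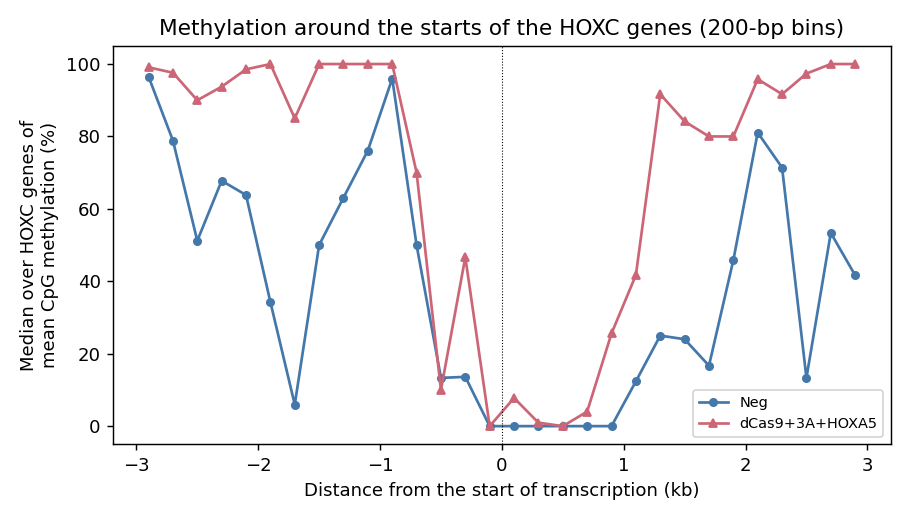
Median over the HOXC genes of mean CpG methylation (%) in 200-bp bins against distance from the start of transcription (kb), with 5 to 9 genes a bin. Both medians are at 0% at 100 bp before the start and at 500 bp after it, where the means over genes are higher, and dCas9+3A+HOXA5 rises to 91.7% at 1.3 kb after it, where Neg is at 25.0%.

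Between the genes, all 8 pieces were higher in dCas9+3A+HOXA5, and 5 of them by more than 20 points. The piece between HOXC10 and HOXC9 had the largest difference, with 15.8% in Neg against 73.7% in dCas9+3A+HOXA5 over 195 CpGs. Its read shares were 18.9% (Wilson interval 15.9 to 22.3%) and 75.9% (72.2 to 79.2%), and 9 of its 18 tiles were called. This difference was 53.9 points with CpGs at least 150 bp apart, and 34.9 points with at least 5 reads at each CpG, where it was not the largest. The piece between HOXC8 and HOXC6 had 36.4% and 69.4% over 205 CpGs, with 5 of 21 tiles called. The piece between HOXC13 and HOXC12 had 65.0% and 93.8%, that between HOXC12 and HOXC11 had 61.8% and 85.1%, and that between HOXC9 and HOXC8 had 54.0% and 74.6%. The 3 other pieces differed by 20 points or less, from 63.5% to 80.7% between HOXC11 and HOXC10, from 90.4% to 98.2% between HOXC6 and HOXC5 and from 63.7% to 78.6% between HOXC5 and HOXC4, and none of their 8, 3 and 28 tiles was called. Which pieces passed 20 points depended on the read minimum: with at least 3 and at least 5 reads at each CpG, the difference between HOXC12 and HOXC11 was 14.1 and 2.05 points and that between HOXC11 and HOXC10 was 24.0 and 51.8 points (unadjusted exact p = 0.233 with at least 5 reads). That between HOXC13 and HOXC12 was 11.9 points with at least 5 reads. The piece between HOXC9 and HOXC8 differed by 32.0 and 45.1 points at these minimums, and that between HOXC8 and HOXC6 by 21.5 and 20.2 points. Over summed reads the piece between HOXC12 and HOXC11 differed by 14.8 points.

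The noncoding genes of the cluster start over the HOXC bodies, promoters and pieces given above, so that their promoters count many of the same CpGs again. Of 9 noncoding starts in the span, 4 had promoters called higher, HOTAIR, MIR196A2, HOXC-AS2 and ENSG00000260597, against 2.59% of 34632 such promoters in the genome, and none was called lower (0.609% in the genome). Those under 20% in Neg could not be called lower. MIR196A2, a microRNA gene whose product is known to target HOXB8, lies between HOXC10 and HOXC9 and had 37.8% in Neg against 93.9% in dCas9+3A+HOXA5 (53 of 122 and 72 of 77 reads, adjusted exact p = 2.36e-11). HOXC-AS2, in the same piece, had 22.6% and 84.7% (adjusted exact p = 8.6e-34), and ENSG00000260597, between HOXC8 and HOXC6, had 17.8% and 80.4% (adjusted exact p = 1.2e-15). These 3 calls held with CpGs at least 150 bp apart, and that of MIR196A2 was lost with at least 3 reads at each CpG (42.0 points, adjusted exact p = 0.0132). The antisense genes that start over a HOXC front stayed low: HOXC13-AS had 1.88% and 1.15%, HOXC-AS3, opposite HOXC10, had 1.56% and 1.03%, and HOXC-AS1, opposite HOXC9, had 0.952% and 4.60%. ENSG00000273046 had 4.70% and 4.73%. MIR615, inside HOXC5, had 32.6% and 44.8% (adjusted exact p = 5.27e-07), a difference under 20 points. Over summed reads it had 31.9% and 53.3%, a difference of 21.4 points that was called. With CpGs at least 150 bp apart the MIR615 difference was 0.83 points (adjusted exact p = 0.383).

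The promoters of genes that act with or on HOX genes were counted in named lists. Among other HOX genes 4 of 11 HOXA, 4 of 10 HOXB and 2 of 9 HOXD promoters were called higher and none lower, with median differences of 13.0, 12.9 and 7.42 points, beside 1.48% called higher and a median of 1.21 points over all promoters. None of 10 promoters of Polycomb repressive complex 2 genes, of 15 of Polycomb repressive complex 1, of 8 of the TALE cofactors that bind DNA with HOX proteins or of 10 of the trithorax group was called, and their median differences were 1.56, 1.15, 1.02 and 1.36 points. At the share over all promoters, a count of 0 in lists of this size does not set them apart.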

How the data were processed

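Methylation was measured by WGBS in 1 library of Neg and 1 of dCas9+3A+HOXA5, grouped by sample title. Per the study's methods and the labels, the authors trimmed the reads and used BSMAP 2.90 to align them to hg19 and to call CpG methylation. For duplicate reads, their handling was not stated in the sources used. Per the file headers, the deposited files give at each CpG the count of reads with C and with C or T, an estimated count (C or T, corrected for C-to-T variants from the opposite strand) and the methylated fraction (C over the estimated count, capped at 1). In the methods only CpGs with at least 5 reads were kept. The deposited counts include CpGs with fewer, and 1 read in both libraries was required here.

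The level of a region was the mean deposited fraction over its CpGs, in percent. Two-sided Fisher's exact tests used C and remaining C or T reads summed over the region, with Benjamini-Hochberg adjustment over all tiles, promoters or bodies on chromosomes 1 to 22, X and Y. A call needed over 20 percentage points, in the direction of the reads, and adjusted p under 0.01, the study's thresholds for islands. Tiles needed 3 CpGs, promoters and bodies 5. Starts and bodies were those of the canonical transcript in GENCODE release 44 on GRCh37. Sequences were read from GRCh37, whose coordinates are those of hg19, and the guide from the study's oligo list. The named genes were all 9 HOXC genes, the noncoding genes of the span, the nearest protein-coding gene on each side and the 5 largest called gains of tiles. The members and lists were chosen with earlier results of these data known. The tests were checked on simulated data. Analyses used Python 3.11.15, numpy 2.4.6, pandas 2.3.3 and numba 0.67.0. Alternatives covered coverage minimum, level definition, variant and depth filters, tile, promoter and body definitions. The 250-bp promoters, shifted tiles and CpGs at least 150 bp apart were added after seeing the data.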

Additional observations from a re-analysis of the deposited data

How the results depend on the processing

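The difference of the whole cluster kept its direction under every alternative run, with a Fisher's exact p under 0.05 in each, from 16.2 points with at least 5 reads at each CpG (the main value was 23.0 points) to 25.1 points with CpGs at least 150 bp apart. Counts of calls depended on depth and on how many CpGs of a fragment were counted. They are given here without the share over the genome under each alternative. Against 40 tiles, 22 were called with at least 3 reads and 5 with at least 5 reads, where fewer CpGs enter. With CpGs at least 150 bp apart, 0 tiles and 0 promoters of the HOXC genes were called, by the Fisher's exact test on far fewer reads a region. The noncoding promoters of MIR196A2, HOXC-AS2 and ENSG00000260597 kept their calls there. Against 3 promoters, 1 was called with at least 5 reads (HOXC11), where the HOXC8 and HOXC4 promoters held too few CpGs for a value, and 1 with promoters from 250 bp before to 50 bp after the start. Around the starts of gene records 4 were called, with HOXC9 and HOXC6 gained and HOXC4 lost. Against 4 bodies, 1 was called with at least 5 reads (HOXC8), where the HOXC11 and HOXC4 bodies held too few CpGs, and the HOXC9 body gave 26.7 points (adjusted exact p = 0.381). In 250-bp tiles 1 was called lower. Of single genes and pieces, 264 alternatives left the call (for pieces, exact p under 0.05) as it was, 18 lost it and 4 gained it, and no called difference changed sign. Differences that were not called did change sign under some alternatives, at the HOXC12, HOXC10, HOXC5, HOXC13-AS and ENSG00000273046 promoters and the HOXC12 and HOXC6 bodies. No paired analysis was possible because Neg and dCas9+3A+HOXA5 are single libraries, and neither could be left out for the same reason.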
